A study of Mus musculus with 7 samples.

Results

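The genes examined here are 9 genes of mature glia, 6 of myelin (Mbp, Mog, Mag, Mobp, Cnp and Cldn11) and 3 of astrocytes (Gfap, Aqp4 and S100b). They were chosen by name as known glial genes, with earlier results of these data known, and not by a threshold on a signal. They are 9 of the 18194 genes that had a probe set annotated to them alone, and all 9 were measured. The comparison of interest is that of adult brain with ectoderm grown in culture. Expression was measured on GeneChip Mouse Genome 430 2.0 arrays, with 1 array for each of 7 male samples. SK7_ESC is the undifferentiated ES cell line SK7, which carries a green fluorescent protein reporter under the Pdx1 promoter. Ect, End and Pme are ectoderm, endoderm and paraxial mesoderm that were derived from SK7 in culture and so share that reporter. Brain, Liver and Sk_muscle (skeletal muscle) are tissues of ICR mice older than 9 weeks. The cultured samples come from a single line, the labels do not say how many animals gave each tissue, and the strain of SK7 is also labelled ICR.

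The deposited values are linear signals, which the authors scaled globally on each array. Signals below 50 were treated as background. To call a gene higher on one of a pair of arrays, its signal there had to reach 50 and to exceed the other by a factor of 2 or more. Where the dimmer signal lay below 50 it was set to 50, which makes the ratio a lower bound, written as "at least". With 1 array per sample there is no spread between replicates, so that differences are described by their size and no test was possible. The signals of a probe set are comparable between arrays, but probe sets differ in brightness, so that the levels of different genes are not. Unless other probe sets are named, a gene's values are those of its representative probe set, the one whose log2 signal averaged highest across arrays. The labels were checked against marker genes: 7 of 7 hepatocyte genes were above background in Liver, 8 of 8 muscle genes in Sk_muscle, 15 of 16 neuron genes in Brain, 7 of 7 pluripotency genes in SK7_ESC, 6 of 6 endoderm genes in End and 14 of 15 neural progenitor genes in Ect. Of 7 mesoderm genes 3 were above background in Pme, and Tbx6, a defining factor of paraxial mesoderm, was 17.7 there. Over all genes the share above background was 44.4% in SK7_ESC, 47.2% in Ect, 45.6% in End, 47.4% in Pme, 49.9% in Brain, 43% in Liver and 43.3% in Sk_muscle.

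Myelin is the membrane that oligodendrocytes wrap around axons in the brain and spinal cord and that Schwann cells wrap around axons in peripheral nerves. In brain, oligodendrocytes and astrocytes arise from neural progenitors after most neurons have been made, and the genes of compact myelin are switched on later still, when progenitors of oligodendrocytes mature. In bulk samples such as these, fewer glial cells and less RNA of a gene in each cell cannot be told apart.

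The study asked how DNA methylation of CpG-rich promoters changes as ES cells form germ layers, and it amplified a bisulfite-treated region named for Cldn11. The promoters of Cldn11, Cnp, Mog and Gfap are shown because the 4 genes all had their highest signal in Brain although their promoters differ in the number of CpG sites, the bases at which DNA is methylated. Each sequence is the 250 bases before the start of the gene in RefSeq (GRCm38.p6), read 5′ to 3′ on the strand of the gene, with CpG sites in capitals. Cldn11 is read from chr3:31149670-31149919 on the plus strand, Cnp from chr11:100574689-100574938 on the plus strand, Mog from chr17:37023399-37023648 on the minus strand and Gfap from chr11:102897201-102897450 on the minus strand.
Cldn11: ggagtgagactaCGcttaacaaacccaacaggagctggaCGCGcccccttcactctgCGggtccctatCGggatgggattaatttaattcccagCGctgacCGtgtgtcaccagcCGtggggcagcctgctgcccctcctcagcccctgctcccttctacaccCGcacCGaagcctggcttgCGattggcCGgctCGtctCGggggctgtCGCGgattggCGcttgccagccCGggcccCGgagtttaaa
Cnp: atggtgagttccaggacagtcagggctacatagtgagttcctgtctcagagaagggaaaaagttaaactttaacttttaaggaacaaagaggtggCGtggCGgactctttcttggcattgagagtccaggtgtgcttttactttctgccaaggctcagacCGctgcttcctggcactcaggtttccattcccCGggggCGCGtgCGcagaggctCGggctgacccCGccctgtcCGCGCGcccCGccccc
Mog: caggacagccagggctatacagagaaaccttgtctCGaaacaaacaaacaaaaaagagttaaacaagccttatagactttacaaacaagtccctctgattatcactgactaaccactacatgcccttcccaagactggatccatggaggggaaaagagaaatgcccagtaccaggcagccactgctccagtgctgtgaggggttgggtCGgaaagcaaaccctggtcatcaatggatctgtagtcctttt
Gfap: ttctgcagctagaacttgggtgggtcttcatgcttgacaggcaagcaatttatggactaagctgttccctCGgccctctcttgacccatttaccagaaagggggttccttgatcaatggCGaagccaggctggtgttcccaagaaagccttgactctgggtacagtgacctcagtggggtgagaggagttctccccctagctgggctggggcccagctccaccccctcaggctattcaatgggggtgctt
The promoter of Cldn11 holds 19 CpG sites and that of Cnp 13, whereas those of Mog and Gfap hold 2 each. Across 32851 RefSeq promoters of the same length the median was 6, 19.7% held at least 19 sites, 31.5% at least 13 and 29% at most 2. S100b also had 2 sites and Mobp 4, and the 3 annotated starts of Mag had 2, 3 and 3. The promoters were also searched, on both strands, for a STAT site (TTCNNNGAA, in 7.02% of all promoters) and for 2 core motifs of SOX factors, ACAAAG (in 16.5%) and ACAATG (in 10.7%), as factors of these families act in glial cells. TTCNNNGAA was found at 2 of the starts of Mag, whose windows overlap. ACAATG was found in none of the 9 windows read for 7 genes (0 of 9), and ACAAAG was found in Cnp, at the same 2 starts of Mag and 6 times in Mobp. The promoter of Mobp, at chr9:120149492-120149741 on the plus strand, is shown with these 6 matches in capitals, all of which lie on the other strand and so read CTTTGT.
Mobp: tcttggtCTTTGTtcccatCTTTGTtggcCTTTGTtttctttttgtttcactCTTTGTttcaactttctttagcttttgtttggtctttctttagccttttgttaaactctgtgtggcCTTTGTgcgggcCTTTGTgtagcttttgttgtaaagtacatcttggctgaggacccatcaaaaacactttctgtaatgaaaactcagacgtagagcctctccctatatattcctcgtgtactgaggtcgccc
Of all promoters, 0.00304% held at least 6 matches to this motif, and those of Mobp lie in a stretch of repeated T-rich sequence. A match describes letters and does not show that a factor binds. The windows of Mbp and Aqp4 were not used here.

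Every one of the 9 glial genes was above background in Brain, against 49.9% of all genes, and every one was higher in Brain than in Ect. Over all genes, 12.3% were higher in Brain than in Ect, and among genes above background in Brain the share was 24.6%. The median ratio of Brain to Ect was 8.31 for the 9 genes, with signals under background raised to it, against 1 for all genes. In Ect 8 of the 9 genes were under background with the representative probe set, and the remaining gene was Cnp. Mbp, 1 of the 8, was above background in Ect with another of its probe sets, at 128.8. Over all genes, 47.2% were above background in Ect, and of the genes above background in Brain 21.1% were under it in Ect. Leaving out Cnp, the representative signals in the 4 cultured arrays lay between 0.2 and 25.8, and 7 of the 8 were under 20 in Ect.

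**Figure D1:**
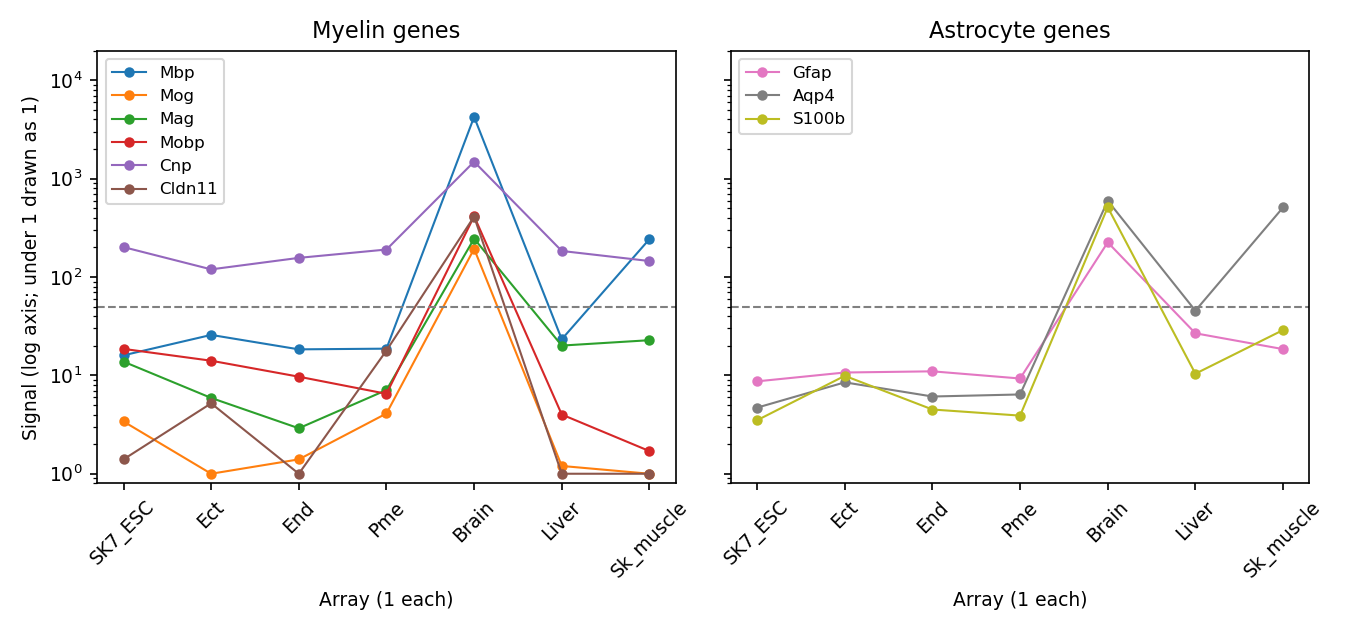
Signals of the 6 myelin genes (left) and the 3 astrocyte genes (right) on a log axis in the 7 arrays, 1 array each, where values below 1 are plotted at 1. Each line is 1 gene, and the dashed line is the background of 50. All 9 genes stand above background in Brain, 1 (Cnp, at 119.7) does in Ect, and Aqp4 reaches 510 in Sk_muscle.

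Among the myelin genes, Mbp encodes myelin basic protein, which holds the inner faces of the myelin membrane together. Its signal was 16.0 in SK7_ESC, 25.8 in Ect, 18.4 in End, 18.7 in Pme, 4250 in Brain, 23.3 in Liver and 243.1 in Sk_muscle. With this probe set it stood above background in Brain and Sk_muscle alone, and it was at least 85.0-fold higher in Brain than in Ect. A different probe set of the gene, given below, was above background in Ect and End. Mobp encodes another basic protein of the compact membrane. Its signal was 18.6 in SK7_ESC, 14.1 in Ect, 9.7 in End, 6.5 in Pme, 415.3 in Brain, 4.0 in Liver and 1.7 in Sk_muscle. Brain was the single array above background, at least 8.31-fold higher than Ect.

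Mog and Mag encode glycoproteins of the myelin surface, Mog on the outermost layer and Mag on the layer that faces the axon. For Mog the signal reached 3.4 in SK7_ESC, 0.3 in Ect, 1.4 in End, 4.1 in Pme, 193.5 in Brain, 1.2 in Liver and 0.6 in Sk_muscle. Mag had 13.8 in SK7_ESC, 5.9 in Ect, 2.9 in End, 7.1 in Pme, 245.9 in Brain, 20.1 in Liver and 22.8 in Sk_muscle. Both were above background in Brain alone, where Mog was at least 3.87-fold and Mag at least 4.92-fold higher than in Ect. These bounds are limited by the background, since each gene had 1 probe set with a modest signal in Brain. Cldn11, which encodes the claudin of the tight junctions between turns of myelin, had 1.4 in SK7_ESC, 5.2 in Ect, 0.2 in End, 17.9 in Pme, 411.8 in Brain, 0.3 in Liver and 0.3 in Sk_muscle. It was at least 8.24-fold higher in Brain than in Ect.

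Cnp, which encodes an enzyme of the cytoplasm-filled channels of myelin, was the exception in Ect. Its signal was 201.6 in SK7_ESC, 119.7 in Ect, 156.7 in End, 190.5 in Pme, 1489 in Brain, 184.2 in Liver and 145.5 in Sk_muscle. Every array was thus above background and Ect had the lowest signal of the 7, with Brain 12.4-fold higher. Of the 3 probe sets of the gene this is the brightest, and its identifier (_x_at) marks sequence shared with other transcripts. With the other 2 probe sets Cnp had 21.9 and 27.3 in Ect, under background, and 285.9 and 291.4 in Brain. With either of these the difference was kept, at least 5.72-fold and 5.83-fold, but Ect was not the lowest array. The lowest were Pme, at 21.2, and End, at 21.8.

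The astrocyte genes were also under background in all 4 cultured arrays, with each of their 8 probe sets. Gfap encodes the intermediate filament of astrocytes. Its signal was 8.7 in SK7_ESC, 10.7 in Ect, 11.0 in End, 9.3 in Pme, 225.3 in Brain, 26.8 in Liver and 18.5 in Sk_muscle. S100b, which encodes a calcium-binding protein of astrocytes that Schwann cells also make, had 3.5 in SK7_ESC, 9.9 in Ect, 4.5 in End, 3.9 in Pme, 512.6 in Brain, 10.4 in Liver and 28.9 in Sk_muscle. Both genes were above background in Brain alone, with Gfap at least 4.51-fold and S100b at least 10.3-fold higher than in Ect. Aqp4, the water channel of astrocyte endfeet, had 4.7 in SK7_ESC, 8.5 in Ect, 6.1 in End, 6.4 in Pme, 597.0 in Brain, 45.5 in Liver and 510.0 in Sk_muscle. Brain and Sk_muscle were the arrays above background, and Brain was at least 11.9-fold higher than Ect. With the other probe sets of Aqp4 the bounds were lower, at least 5.04-fold and at least 3.58-fold.

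The 9 genes had 27 probe sets annotated to them alone, and these gave the same picture with few exceptions. Brain was the brightest array for 25 of the 27, against 20.9% of all 34958 probe sets with 1 gene symbol, and 25 were called higher in Brain than in Ect, against 11.2%. The 2 not brightest in Brain were a probe set of Mobp, which was under background in every array with at most 4.3, and a probe set of Aqp4, with 251.8 in Brain and 280.1 in Sk_muscle. Above background in Ect were 2 probe sets, against 41.3% of all, and in Sk_muscle 9, against 36.8%. The other 4 probe sets of Mobp had between 415.3 and 1970 in Brain and at most 14.1 in Ect, so that the value used above is the lowest of these 4 in Brain. The 3 probe sets of Gfap had 133.5, 140.1 and 225.3 in Brain and at most 10.7 in Ect.

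**Figure D2:**
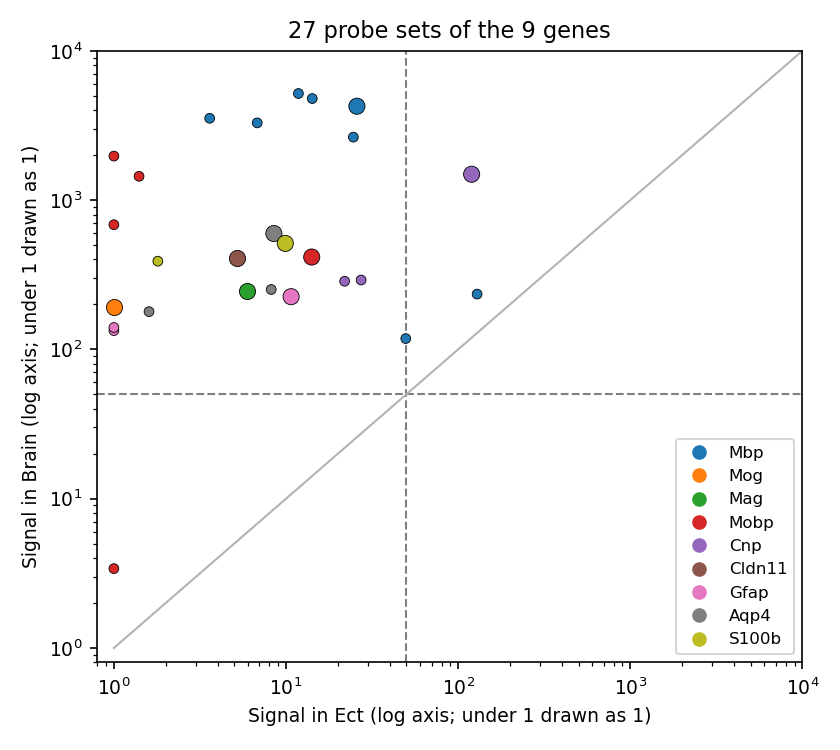
Each of the 27 probe sets is drawn by its signal in Ect (horizontal) and in Brain (vertical), both log axes with signals under 1 drawn as 1. Large points are the probe sets used for the gene values, dashed lines mark the background of 50 and the grey line marks equal signals. Points to the right of the vertical dashed line are 1 probe set of Cnp and 1 of Mbp, and 26 points lie above the horizontal one.

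Within Mbp the 8 probe sets fell into 2 patterns, which were separated after their values were seen. With 6 of them Mbp had between 2639 and 5172 in Brain and between 3.6 and 25.8 in Ect, which is at least 52.8-fold to at least 103-fold higher in Brain. The other 2 were far dimmer in Brain and brighter in culture. One of these 2 had 29.2 in SK7_ESC, 128.8 in Ect, 86.1 in End, 29.8 in Pme, 234.5 in Brain, 3.1 in Liver and 8.6 in Sk_muscle. With it Ect and End were above background and Brain was 1.82-fold higher than Ect, under the limit for a call. The other had 11.8 in SK7_ESC, 49.6 in Ect, 44.3 in End, 16.6 in Pme, 118.1 in Brain, 10.6 in Liver and 8.4 in Sk_muscle. Both thus had Ect and then End after Brain in order of signal, and both were at 8.4 to 8.6 in Sk_muscle, where the 6 others had between 45.8 and 324.7. The Mbp locus is known to make, besides the transcripts of myelin, longer golli transcripts that occur outside myelinating cells. The transcripts that each probe set reads were not tested here.

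**Figure D3:**
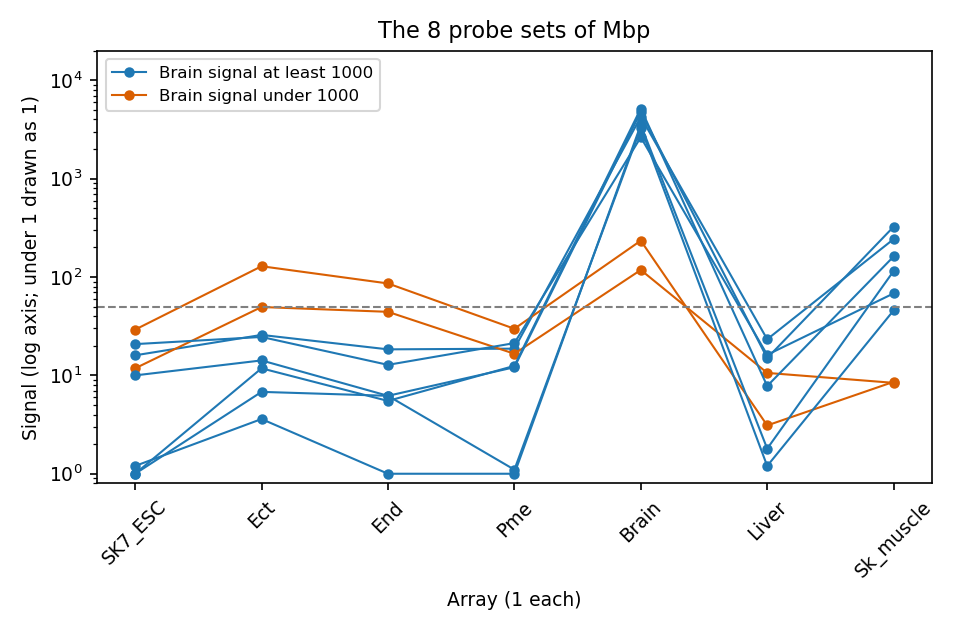
Signals of the 8 probe sets of Mbp across the 7 arrays (1 per sample) on a log axis, where values below 1 are plotted at 1. Each line is 1 probe set, and the dashed line is the background of 50. The 6 blue lines lie between 2639 and 5172 in Brain and under background in the 4 cultured arrays. The 2 orange lines reach 128.8 and 49.6 in Ect and stay at or under 8.6 in Sk_muscle.

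With representative probe sets, 0 of the 9 genes were higher in Ect than in SK7_ESC, against 6.62% of all genes, and 0 were lower, against 4.89%. Of the 27 probe sets 1 was higher in Ect, against 5.4% of all with 1 symbol. It belongs to Mbp, with 128.8 in Ect and 29.2 in SK7_ESC, at least 2.58-fold. In End and in Pme likewise, 0 of the 9 were higher than in SK7_ESC, against 4.89% and 6.74% of all genes, and 0 were lower, against 3.81% and 4.55%. These comparisons share the SK7_ESC array. Apart from Cnp both representative signals were under background in each, so that no ratio could be formed with them.

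Set against all 6 other arrays, 8 of the 9 genes were higher in Brain than in each of them, compared with 6.69% of all genes and 13.4% of the genes above background in Brain. Aqp4 was the exception, at 1.17-fold over Sk_muscle. In Liver and Sk_muscle 3 of the 9 were above background, namely Cnp in both and Mbp and Aqp4 in Sk_muscle, against 51.5% of all genes above background in either tissue. Mbp was at least 4.86-fold and Aqp4 at least 10.2-fold higher in Sk_muscle than in Liver, where over all genes 12.1% were higher in Sk_muscle.

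For Aqp4 the ratio of Brain to Sk_muscle was 1.17 and 1.20 with 2 of its probe sets and 0.899 with the third, so that 3 of 3 put both tissues within the limit for a call. Aquaporin-4 is also known from the surface membrane of fast-twitch muscle fibres. In Sk_muscle Gfap was 18.5 and S100b 28.9, both under background.

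With 5 of the 6 probe sets bright in Brain, Mbp was also above background in Sk_muscle, and Brain was 14.7-fold to at least 65.8-fold higher than Sk_muscle over the 6. Muscle contains nerve branches with Schwann cells, whose myelin also contains myelin basic protein. Of 8 measured genes of peripheral myelin and Schwann cells, 2 were above background in Sk_muscle and 2 in Liver. Their signals ranged from 12.8 to 710.5 in Sk_muscle and from 0.8 to 92.5 in Liver, and they added up to 900.6 and 264.3. Most of the first sum was Pmp22, a protein of peripheral myelin that other cells also make. It was 710.5 in Sk_muscle, 52.5 in Liver and 1855 in Pme. Without Pmp22 the sum was lower in Sk_muscle than in Liver. Ncmap, a further protein of peripheral myelin, was 66.9 in Sk_muscle. Cdh19, a cadherin of Schwann cell precursors, was under background at 24.6, as was Sox10, a factor of Schwann cells and oligodendrocytes, at 31.6. Sox10 was under background in Brain too, at 43.9, so its low value in Sk_muscle says little. The part of Schwann cells in the signal of Mbp was not tested. Mobp and Mog, genes of central myelin, were 1.7 and 0.6 in Sk_muscle, and Snap25, a synaptic protein gene of neurons, was 2.2. Of the 16 neuron genes listed below, 2 were above background in Sk_muscle, against 43.3% of all genes. They were Camk2a, at 266.1, and Stmn2, at 102.8.

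The lists below were drawn from general knowledge of these cells and hold no member of the 9. Their counts stand against 12.3% of all genes higher in Brain than in Ect, 13.8% higher in Ect than in Brain and 47.2% above background in Ect. Other genes of myelin were mostly under background in Ect too. Of 25 measured, 15 were higher in Brain than in Ect, 0 were lower and 10 were neither, and their median ratio was 2.97. In Brain 20 of the 25 were above background, against 49.9% of all genes. Gjb1, Gjc3, Nkx6-2, Carns1 and Klk6 were under it in both arrays, so that their low signals in Ect say little. The largest ratios were those of Plekhb1, which encodes a membrane-associated protein (at least 34.2-fold), Car2, a carbonic anhydrase found in oligodendrocytes (16.6-fold), Omg, a glycoprotein of oligodendrocytes and neurons (at least 15.2-fold), and Ugt8a, the enzyme that makes galactolipids of myelin (at least 12.6-fold). Car2 was not absent from culture, with 3355 in End and 1098 in SK7_ESC beside 1476 in Brain. Plekhb1 was also above background in Liver and Sk_muscle, at 433.5 and 392.7. In Ect 6 of the 25 were above background, with signals of 196.3 for Sirt2, 148.2 for Gsn, 116.8 for Cd9, 90.4 for Cryab, 89.0 for Car2 and 63.9 for Tspan2. All 6 were also above background in Sk_muscle and are known from many tissues. Myrf, the transcription factor that drives myelin genes, was 171.5 in Brain and 46.6 in Ect, and it was higher in SK7_ESC and Pme, at 234.0 and 464.4.

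Of 29 other astrocyte genes, 24 were higher in Brain than in Ect and 2 were lower, with a median ratio of 7.90. Aldoc, the aldolase of astrocytes, was at least 72.6-fold higher, Sparcl1, a secreted protein that promotes synapses, at least 64.3-fold, Ndrg2, a cytoplasmic protein of astrocytes, at least 35.4-fold, and Slc1a2, the main glutamate transporter, 32.0-fold. Ndrg2 was brighter in Liver (3551) and Sk_muscle (3991) than in Brain (1769), and Sparcl1 was 1062 in Sk_muscle. Of the 29, 16 were higher in Brain than in each other array, against 6.69% of all genes. In Ect 10 of the 29 were above background, as were 9 in SK7_ESC, 8 in End and 12 in Pme. Among the 10 in Ect, Gja1, which encodes connexin 43, had 2046 in Ect and 1957 in Brain. Gja1 was also bright in the other cultured arrays, at 1692 in SK7_ESC, 2696 in End and 2273 in Pme. Signals in Ect were also above background for Cst3 (679.5), Glul (633.2), Fgfr3 (299.6), Apoe (106.5) and Clu (105.0). The 2 genes lower in Brain were Id3, an inhibitor of differentiation factors, with 878.6 in Ect and 123.0 in Brain, and Sox9, a factor of progenitors and astrocytes, with 100.0 in Ect and 48.6 in Brain. Of the 29, Ect was higher than SK7_ESC for 3, against 6.62% of all genes, and lower for 4, against 4.89%. The 3 were Id3 (at least 17.6-fold), Fgfr3 (5.94-fold) and Sox9 (at least 2-fold). The 4 lower were Aldoc, Ndrg2, Htra1 and Apoe, which had 2258 in SK7_ESC and 106.5 in Ect. Id3 was not particular to Ect, with 675.9 in End and 991.0 in Pme. Fgfr3 and Sox9 were also above background in Pme, at 205.3 and 52.4. Ect was not called higher than Pme for either gene.

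Of 12 measured genes of the earlier oligodendrocyte lineage, 2 were above background in Ect, a smaller share than the 47.2% of all genes, and 1 was with the geometric mean or the median of probe sets. In Brain 9 of the 12 were above background, against 49.9% of all genes. Sox10, Cspg4 and Nkx2-2 were under it in Brain too, so that their low signals in Ect say little. Brain was higher than Ect for 7 of the 12, and Ect was higher for 0. Olig2, which specifies the lineage and motor neurons, was 96.7 in Ect, 83.2 in Brain and at most 4.9 in the other arrays. Olig1, its partner in oligodendrocytes, was 25.5 in Ect and 831.3 in Brain. Ptprz1, a receptor phosphatase of progenitors, was 70.3 in Ect and 757.3 in Brain. Bcan, a proteoglycan of the brain matrix, was at least 16.9-fold higher in Brain, and Lhfpl3, a membrane protein of oligodendrocyte progenitors, at least 5.25-fold. Sox10, which is required for myelin genes, was under background in Ect and in Brain alike, at 21.8 and 43.9.

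Neural progenitor genes went the other way. Of 15 measured, 12 were higher in Ect than in Brain and 0 were lower, against 13.8% of all genes higher in Ect, with a median ratio of Brain to Ect of 0.150. Hes5, an effector of Notch in progenitors, was 671.5 in Ect and 28.7 in Brain. Vim, an intermediate filament of radial glia and mesenchyme, was 3991 in Ect and 179.4 in Brain. These 2 were named after their values were seen. Vim was not particular to Ect, with 4510 in Pme and 1920 in SK7_ESC. Nes, Tnc and Pax6 were not called higher in Ect, and Pax6 was under background there, at 30.5. Of 16 neuron genes, 11 were above background in Ect, and 13 were higher in Brain. Their median ratio of Brain to Ect was 11.6, against 8.31 for the 9 glial genes, with signals under background raised to it. The glial median rests mostly on lower bounds, so that the medians cannot be ranked. A higher signal in Brain by such a factor was thus not particular to the glial genes. Snap25 was 86.8-fold, Syt1 64.9-fold, Gad1 at least 45.7-fold and Eno2 at least 32.2-fold higher in Brain, which are genes of synaptic release, of inhibitory neurons and of neuronal glycolysis. Of 10 microglia genes and 9 endothelium genes, which mark other cells of brain tissue, 0 were above background in Ect, and 10 and 5 were above it in Brain.

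**Figure D4:**
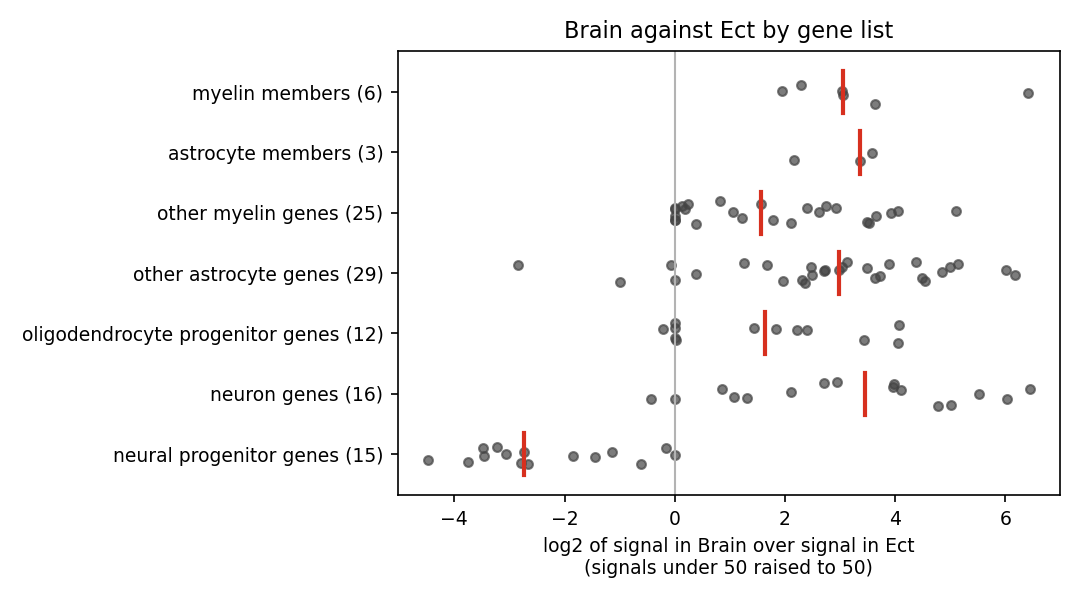
Each point is a gene, placed by the log2 ratio of its signal in Brain to that in Ect, with signals under 50 raised to 50, and red bars mark the median of each list (number of genes in brackets, 1 array each for Brain and Ect). All points of the myelin and astrocyte members lie to the right of 0, and the median of the neural progenitor genes lies to the left of it.

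Genes outside the 9 with the most similar pattern were sought by the distance between log2 signals over the 7 arrays, with signals under 50 raised to 50. For the median pattern of the 6 myelin genes the nearest were Plcxd3, Clvs1, Slc25a18, Nap1l3, Cnih2, Ttc9b, Slc39a12 and L1cam, with distances of at most 0.0273. Their signals in Brain were between 405.9 and 421.3, and at most 44.5 in Ect. For the 3 astrocyte genes they were Tafa2, Gas7, Arfgef3, Grm3, Slco1c1, Rgs7, Slitrk1 and Dync1i1, with distances of at most 0.0323 and between 505.4 and 524.2 in Brain. Of these 16 genes, Slc25a18 is in the astrocyte list used above and Slco1c1 in the endothelium list. Since nearly all of the 7 values of such genes are raised to background, the distance reflects the signal in Brain and little else.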

How the data were processed

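RNA of 7 samples was hybridized to GeneChip Mouse Genome 430 2.0 arrays, 1 array each. The deposited table gives 45101 probe sets as linear intensity, after a global scaling of each array by the authors. After that scaling the mean signal was between 141 and 204, and 100.0 once 2% of probe sets were trimmed at each end. How probes were summarised was not stated in the text or labels read. The labels name an RNA kit that differs from the reagent in the methods.

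Gene names came from the platform annotation, and Entrez identifiers tied 34754 of the 34958 single-symbol probe sets to RefSeq (GRCm38.p6). Each gene was represented by the probe set whose log2 signal, with 0 raised to 0.1, had the highest mean over the arrays. Array medians were between 15.6 and 25.0. The members, lists and alternatives were chosen with earlier results of these data known. The named genes were all members, up to 4 genes of a list with the largest ratio of Brain to Ect, genes of the myelin, astrocyte and oligodendrocyte progenitor lists above background in Ect (up to 8), genes that went against their list, and the 8 nearest patterns without predicted genes. Others are named where a result turns on them. Alternatives were a background of 20, a 3-fold rule, 2 scalings and 3 other choices of probe set, with 2 more added after the data had been seen. The calls were tested on simulated data. Precision is limited by the number of arrays. Python 3.11.15, numpy 2.4.6, pandas 2.3.3 and matplotlib 3.10.9 were used. DNA methylation was not analysed here.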

Additional observations from a re-analysis of the deposited data

How the results depend on the processing

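All 9 genes were higher in Brain than in Ect under each of the 9 alternatives that kept them. Leaving out probe sets with shared sequence, taken as every identifier ending in _x_at, _s_at or _a_at, removed Mbp and Cnp, after which 7 of 7 were higher. Whether the sequence is shared within a gene or with other genes was not examined. Of the single ratios of Brain to Ect, the lowest was 2.80 for Gfap with the median of its probe sets and the highest 164.7 for Mbp with a background of 20, where the median ratio was 20.6. Members above background in Ect were 2 with a background of 20 (Mbp and Cnp) and 0 with the geometric mean or the median of probe sets, without shared sequence or without _x_at probe sets. Members above background in Liver or Sk_muscle were 6 with a background of 20 and 1 without shared sequence. Oligodendrocyte progenitor genes above background in Ect were 6 with a background of 20 and 1 with the geometric mean or the median of probe sets. Other astrocyte genes above background in Ect were 6 of 24 without shared sequence, and 1 was higher in Ect than in Brain after quantile normalization, with the geometric mean, with the median and with the 3-fold rule. Of the other myelin genes, 1 was higher in Ect than in Brain with the median of probe sets. In all, 217 of 251 recomputed values stayed within 1.5 times the value reported. The ratio of Brain to Ect for Aqp4 was 5.04 with the median of its probe sets and 5.99 with their geometric mean. Scaling to the same median moved the median log2 difference of Brain and Ect over all genes from 0 to -0.46, and the share of genes higher in Brain among those called from 47.1% to 31.0%; quantile normalization moved them to -0.21 and 45.8%. Signals near background limit the bounds given for Mog, Mag and Gfap. No paired analysis was possible because each sample has 1 array.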
